A study of Mus musculus with 2 samples.

Results

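The regions described here are the very long introns of mouse mammary gland, read from splice junctions whose ends lie 100 kb or more apart. They were chosen by 2 measured values of the deposited junction table, a score under 0.1 and a distance between the ends of at least 100000 nt. Of the 465423 junctions in the table, 139927 had a score under 0.1, and 1627 of these were 100 kb or longer. The poly(A) RNA came from mammary gland, in 1 group of 2 libraries whose labels number them as replicates 1 and 2. The mice were of the inbred strain C57BL/6J, 8 weeks old, and each library pooled tissue of males and females. The labels give neither a treatment nor the reproductive state, describe the animals as littermates and carry the same donor identifier for both replicates, so differences between the replicates measure only the spread between these libraries. The junction table was deposited once for the series on the mm9 build, without a header, and gives for each junction a read number that was the sum of 2 numbers coded R1 and R2. What the codes stand for is not given in the sources used here, so R1 and R2 are printed as codes and are not assigned to a replicate. The junctions of the whole table held 20291944 reads under R1 and 15601699 under R2.

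An intron is the stretch of a transcript that the spliceosome removes when it joins the 2 exons beside it. It recognises a donor site at the intron's 5′ end and an acceptor site at its 3′ end, and the larger the distance between them, the longer RNA polymerase needs before the acceptor exists. Very long introns are common in genes for cell adhesion, receptors, cytoskeletal scaffolds and transcription factors, and often stand first in the transcript. A read that crosses a junction holds the end of one exon and the start of the next, so exons that are copied elsewhere in the genome can place such a read between copies.

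The mm9 junctions were named by the length of the intron, which was compared with every intron of the GENCODE M21 annotation on the same chromosome and strand. Of the 1627 long junctions, 374 had exactly the length of an annotated intron. When the length was changed by 1 or 2 nt in either direction, at most 1 junction found a partner. For 373 of the 374 the difference between the position of the junction and that of the annotated intron was shared with other junctions of the chromosome, and these 373 are called annotated long introns below. They lay in 309 host genes, 304 of them protein coding. The remaining 1254 long junctions had no kept match by exact length and are described after them. Below, this is all that "without an annotated counterpart" means. An annotated intron whose length differs between mm9 and mm10 would be among them.

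The exon ends that these introns joined are shown for the 6 introns with the most reads, for the prolactin receptor, for both other annotated Ghr introns and for the 3 longest introns, since they carry the splicing events described below. Each line holds the last 15 bases of the exon before the intron and the first 15 bases of the exon after it, 5′ to 3′, from the GENCODE M21 transcripts (mm10). Capitals mark the last 3 bases before the boundary and the first base after it.
Ghr intron 1, 124991 nt: aggcgaaactccGAGGtctcaggtatggat
Ghr intron 1 from the alternative donor, 124249 nt: cctccatgaactGGGGtctcaggtatggat
Ghr intron 1 to the alternative acceptor, 194286 nt: aggcgaaactccGAGCtacaccagctactc
Ablim1 intron 1, 141233 nt: ccatgtccacccGAGTggcccatcctcagg
Msra intron 6, 126954 nt: cgatccctgtaaCAGCcaaacaccatgtca
Macrod1 intron 3, 119372 nt: ccattgtcaacgCTGCcaacagctccctgc
Babam2 intron 7, 100196 nt: accccgaattgaGCATgcactcggaggctc
Rbms1 intron 1, 120218 nt: tatctgcaagccAAGCagtctctggtccca
Prlr intron 1, 115779 nt: ttctctccagcaGAACtaaagaacgcttct
Arhgap6 intron 1, 423386 nt: gtgtggaggtccGAGGgtgacttcacctgg
Kcnq5 intron 1, 367566 nt: ctaccacgcgttCGTTtttctccttgtgtt
Lsamp intron 1, 355383 nt: cacggccatcctCAGGtgtgtggtagaaga
The first 3 lines show how the Ghr introns share sites: the first and second end at the same acceptor, and the first and the third start from the same donor. The exon before the annotated long intron ended in G in 311 of 373 (83.4%), against 81.6% over all 126567 score-passing junctions matched to annotated introns. It ended in AG in 59.5%, against 55.3%, and the exon after it started with G in 42.9%, against 49.2%. These letters lie in the exons; the bases of the introns themselves were not analysed here.

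The share of junctions that the annotation accounted for was lower at greater length. Among score-passing junctions under 1 kb 91.0% were matched to an annotated intron, between 1 and 10 kb 93.6% and between 10 and 50 kb 84.2%. The share was 61.5% between 50 and 100 kb, 32.4% of 1006 junctions between 100 and 200 kb and 8.15% of 577 between 200 and 500 kb. None of the 44 junctions of 500 kb or more was matched. The table's own codes moved with length too. Code A=1 was carried by 361 of the 1627 long junctions, of which 356 had the length of an annotated intron. Code C=0 was carried by 549 of the 1627 (33.7%), against 2.93% of all score-passing junctions, and no long junction with C=0 had A=1.

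**Figure D1:**
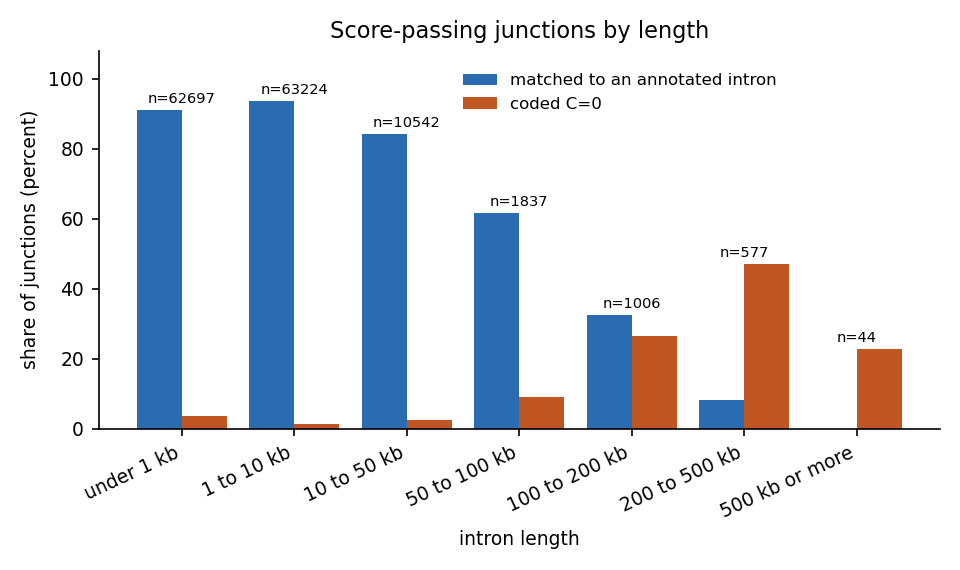
Share of score-passing junctions, in percent, that were matched to an annotated intron (blue) or carried the code C=0 (orange), in 7 classes of intron length, with the number of junctions above each pair. The matched share fell from 91.0% under 1 kb to 32.4% between 100 and 200 kb and 0 at 500 kb or more, and the C=0 share was highest, at 47.1%, between 200 and 500 kb.

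Both thresholds cut through a continuous range. Just inside the length limit lay a junction of 100077 nt with its acceptor inside Tuba1c and no annotated site, a Chchd6 intron of 100113 nt with 29 reads and a Bach2 intron of 100130 nt with 41 reads. Just outside lay a junction of 99932 nt without an annotated counterpart, a Zbtb20 intron of 99770 nt with 11 reads and a Tln2 intron of 99624 nt with 33 reads. On the score, the last values inside were 0.091, with 280 junctions and a median of 7 reads, and 0.069, with 186 junctions and a median of 10 reads. The first values outside were 0.111, with 1 junction of 1503 reads, and 0.145, with 531 junctions and a median of 5 reads. Read numbers overlapped across the score limit, from 5 to 139 at 0.091 and from 4 to 1305 at 0.145.

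The annotated long introns had a median length of 131260 nt and a median of 32 reads, from 5 to 4263. Their 28275 reads were split into 13799 under R1 and 14476 under R2. They stood early in their transcripts. In the transcript with the highest mean TPM among those that hold the intron, 181 of 373 (48.5%) were the first intron, 82 the second, 28 number 3 and 82 number 4 or later. Over all matched score-passing junctions 13.2% were first introns. The intron lay inside the coding sequence in 302 cases (81.0%), in the 5′ UTR in 45 (12.1%) and in a transcript without coding sequence in 26 (6.97%). The shares over all matched score-passing junctions were 86.2%, 5.61% and 6.21%. Length and reads were nearly unrelated across the 373 introns (Spearman's rho -0.0985), which is a description across introns of the same libraries, and the score threshold had removed those with few reads.

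The host genes were expressed at modest levels. Of the 309, 283 (91.6%) reached 1 TPM in both replicates. The mean TPM of all 309 had a median of 7.19. It was 14.6 for the 13272 protein-coding genes with a mean of at least 1 TPM, a floor that was not set on the host genes. Only 4 host genes passed a mean of 100 TPM. TPM is a level per transcript length, so it can be set side by side between genes. Reads summed over a gene's long introns and its mean TPM had a Spearman's rho of 0.503 across 309 genes that share the same libraries.

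Ghr, the growth hormone receptor gene, had the most-read annotated long intron. Its first intron, in the 5′ UTR at chr15:3408009-3532999 on the minus strand, held 4263 reads, 1532 under R1 and 2731 under R2, and the next intron of the same transcript held 1635. The gene stood at 133.85 TPM in replicate 1 and 81.54 TPM in replicate 2. The same acceptor was joined to a second donor by 98 reads, 54 under R1 and 44 under R2, and the first donor was joined to a more distant acceptor by 50 reads, 21 and 29. These 2 introns are shown beside the main one in the sequences above. In addition, 3 junctions without an annotated counterpart used one of these sites, with 37 reads (27 and 10) and 12 reads (10 and 2) into the common acceptor and 12 reads (5 and 7) from the first donor. Alternative 5′ exons are a known feature of this gene. Among the long junctions of Ghr no alternative passed 98 reads.

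Prlr, the receptor for prolactin, the hormone that drives milk production, lies on the same chromosome and had a similar layout. Its first intron, at chr15:10107627-10223405 on the plus strand and also in the 5′ UTR, held 372 reads, 246 under R1 and 126 under R2. Prlr stood at 58.04 and 26.87 TPM. Egfr, the epidermal growth factor receptor gene, had a first intron of 106325 nt with 83 reads, 47 and 36, at 49.08 and 156.46 TPM. The expected counts of Egfr were 6501.87 and 3640, so the replicates stood in the opposite order to the TPM. For Prlr the reads were higher under R1 and the TPM in replicate 1. The gene lists used from here on were drawn up with earlier results of these data known, so their host counts measure no enrichment. For the same reason their median reads describe the listed genes only. In no list stood 170 of the 309 host genes and 189 of the 373 introns. Over all genes, 304 hosts were protein coding, beside 13272 protein-coding genes with a mean of at least 1 TPM. Among the 136 genes listed as signalling receptors, kinases, phosphodiesterases and G protein regulators, 32 were hosts. They had 40 introns and a median of 32.5 reads, next to a median of 32 over all 373. Dock2 and Dock10, which code for guanine nucleotide exchange factors, followed Ghr and Prlr in this list. Dock2 intron 27 held 321 reads, 185 under R1 and 136 under R2, and Dock10 intron 1 held 284, 43 under R1 and 241 under R2.

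Adhesion and matrix genes were the list with the most long introns. Of its 98 genes 31 were hosts, and together they had 52 introns with a median of 34.5 reads. Cdh13, the gene of T-cadherin, which binds adiponectin, had 5 of them, more than any other gene, and they added up to 738 kb of intron. They were introns 1, 2, 5, 6 and 7, with 93, 368, 115, 324 and 162 reads. All 5 held more reads under R1 than under R2, 60 against 33 in intron 1 and 245 against 123 in intron 2, and the gene stood at 39.70 TPM in replicate 1 and 21.69 TPM in replicate 2. Gpc6, a cell-surface heparan sulphate proteoglycan, had 4 long introns that added up to 944 kb, with 8 to 113 reads. Ptprj, a receptor-type tyrosine phosphatase, had 369 reads on its first intron at chr2:90315147-90420312, 40 under R1 and 329 under R2, although its level was 9.60 and 9.02 TPM. Lama2, the laminin chain of muscle and other basement membranes, had 263 reads on its first intron, 137 and 126. Lpp, a focal adhesion gene, had 193 on its second intron, 123 and 70, and Slit3, a secreted guidance cue, had 168 reads on an intron of 273314 nt, 99 and 69.

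Among cytoskeletal and scaffold genes 19 of 72 were hosts, with 21 introns and a median of 12 reads. Ablim1, an actin-binding LIM protein gene, had the second most-read annotated long intron, with 624 reads, 155 under R1 and 469 under R2, at 50.87 and 74.68 TPM. Tbc1d4, a regulator of glucose transport, had 104 (72 and 32), and Exoc6b, Sntb1 and Fmnl2 had 81, 75 and 58. Dmd, the dystrophin gene, had 2, with 12 reads (11 and 1) and 9 reads (8 and 1). Among transcription and chromatin regulators 31 of 120 were hosts, with 35 introns and a median of 22 reads. Tbl1x, a subunit of a nuclear receptor corepressor complex, led with 306 reads, 99 and 207. Tcf7l1, a transcription factor of Wnt signalling, had 258, 159 and 99. The nuclear factor I genes Nfia and Nfib had 202 reads (140 and 62) and 177 reads (130 and 47), and Ebf1, a regulator of B cells and adipocytes, had 149 reads (114 and 35) on an intron of 225622 nt.

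The list of RNA-binding protein genes had the fewest long introns. Of 39 listed genes 9 were hosts, with 12 introns and a median of 89 reads, the highest median of the 6 lists. Rbms1, which codes for a single-strand binding protein, had 396 reads, 143 and 253, at 136.56 and 160.64 TPM. Rbms3, of the same family, had 208 (136 and 72), and Fto, an RNA demethylase gene, 115 (75 and 40). Celf2, a regulator of alternative splicing, had 3 long introns with 136, 134 and 95 reads. The intron of 240765 nt and that of 150742 nt ended at the same acceptor, with 60 and 76 reads under R1 and R2 for the longer and 53 and 42 for the shorter. In the list of metabolism, transport and fragile-site genes 17 of 109 were hosts, with 24 introns and a median of 32 reads. Me3, a mitochondrial malic enzyme gene, led it with 185 reads, 163 under R1 and 22 under R2, at 22.24 and 1.84 TPM. Ext1, which builds heparan sulphate, had 122 (90 and 32), Immp2l, a mitochondrial peptidase gene, 109 (92 and 17), Cpq 93 and Pitpnc1 79 (31 and 48).

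The other introns among the 15 with the most reads came from genes of varied roles. Msra, which repairs oxidised methionine, had 566 reads on its sixth intron, 275 and 291, at 23.22 and 20.18 TPM. That number belongs to the chosen transcript. Of its 9 other introns 5 had no matched reads, among them the intron just before. Macrod1, an ADP-ribose hydrolase gene, had 531 on intron 3, 363 and 168, at 88.88 and 82.66 TPM. Babam2, a member of a deubiquitinating complex, had 420 on its seventh intron, 332 and 88. Pam codes for the enzyme that amidates peptide hormones. Its first intron held 391 reads, 79 under R1 and 312 under R2, and its level was 19.78 TPM in replicate 1 and 153.76 TPM in replicate 2. Its expected counts, 2965.43 and 3786, were much closer to each other. Prkcb, a protein kinase C gene, had 326 reads, 107 and 219, at 11.26 and 24.15 TPM, and Trabd2b had 291, 178 and 113, at 9.75 and 13.02 TPM.

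**Figure D2:**
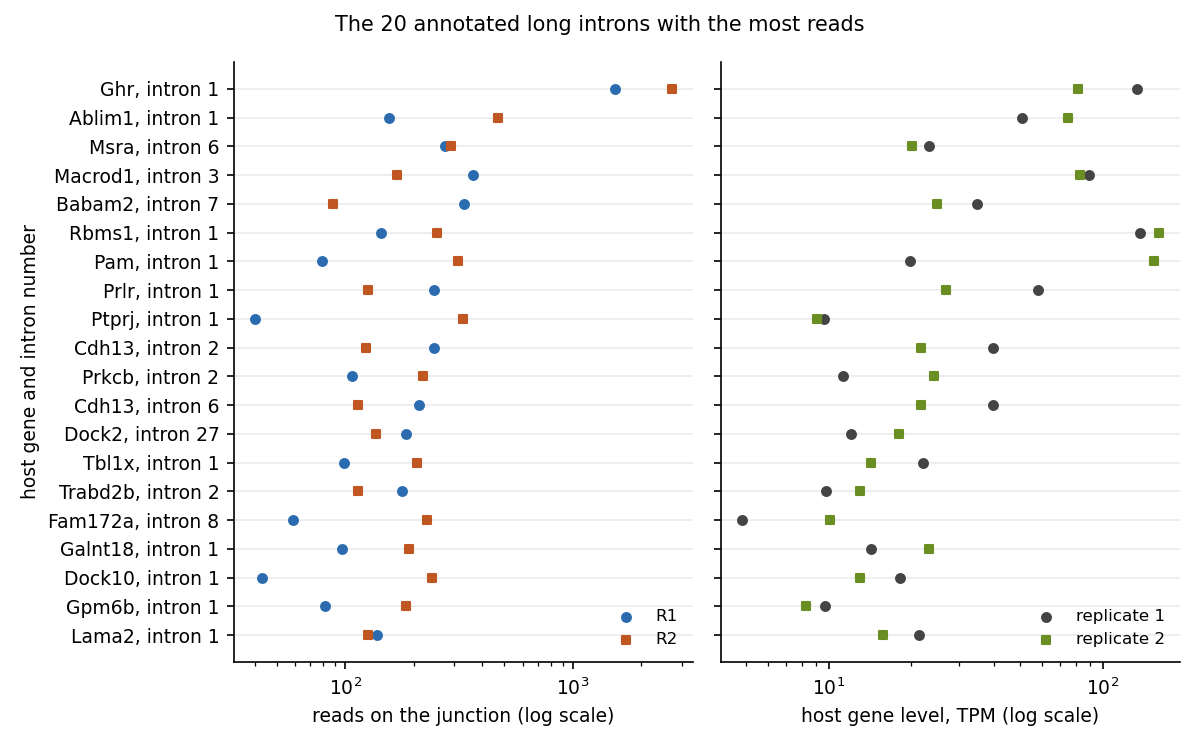
Reads under R1 and R2 (left, log scale) and host gene level in TPM in replicates 1 and 2 (right, log scale) for the 20 annotated long introns with the most reads, each named by its gene and intron number. Ghr intron 1 lies apart at 1532 and 2731 reads, and Ptprj and Dock10 show wide gaps between R1 and R2 with close TPM values.

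R1 and R2 were compared with the levels of the host genes in the replicates. Across 298 host genes with reads under both codes, the log2 ratio of R2 to R1 and the log2 ratio of expected counts in replicate 2 to replicate 1 had a Pearson's r of 0.391 and a Spearman's rho of 0.411. The points share libraries and many rest on few reads. Of 8 host genes with no read under R2, 7 had the higher TPM in replicate 1, and of 3 with none under R1, 1 had the higher TPM in replicate 2. Rbfox1, a splicing regulator of muscle and neurons, had 83 reads under R1 and 0 under R2 on its first intron, at 14.20 and 0.23 TPM. Agbl1, a deglutamylase gene, had 23, 13 and 7 reads under R1 on 3 long introns and none under R2, at 3.94 and 0.05 TPM, and Mlip, a muscle gene, had 14 and 0 at 20.67 and 0.60 TPM. Plcb1, a phospholipase gene and the exception among the 8, had 17 and 0 reads at 2.38 and 4.34 TPM, and Myo5b, a myosin motor of vesicle transport, had 0 and 10 reads at 3.37 and 2.03 TPM. A value of 0 reads here allows up to 3 by counting error alone. Of 18 skeletal muscle markers chosen after the values were seen, all 18 were higher in replicate 1, with summed levels of 31510 TPM in replicate 1 and 18.45 TPM in replicate 2. Their part in these differences was not tested.

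Neighbouring introns gave a measure within the same transcript. In 29 of the 373 cases the long intron was the last of its transcript and had no next intron. The next intron had reads in 324 cases, and the long intron had fewer reads than it in 132 of these. Next introns without reads were left out of the ratio. The median ratio of the long to the next intron was 1.31, with quartiles of 0.593 and 2.51. The score threshold had acted on the long introns, and no such limit was set on their neighbours.

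The 10 longest annotated introns were between 283122 and 423386 nt. The longest, the first intron of Arhgap6, a GTPase-activating protein gene, ran over chrX:165234744-165658129 with 9 reads, 5 under R1 and 4 under R2. A shorter first intron of 183331 nt ended at the same acceptor with 38 reads, 22 and 16. Kcnq5, a potassium channel gene, followed with 367566 nt and 13 reads (11 and 2), and Lsamp, a neural adhesion gene, with 355383 nt and 28 reads (16 and 12). Sdk1 at 340200 nt, Magi1 at 339689 nt, Ank3 at 324148 nt, Csmd1 at 316522 nt and Smyd3 at 310880 nt had 27, 30, 7, 8 and 40 reads. Negr1 had 65 reads on 297084 nt and Cmss1 47 on 283122 nt. The host genes of the 3 longest stood between 0.55 and 4.19 TPM in either replicate, so these introns rested on low levels and few reads.

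Some long introns of 1 gene shared a site. The pair in Pdgfd, a platelet-derived growth factor gene, started from 1 donor and ended at acceptors 18 nt apart, and the pair in Enox2, an oxidase gene on chromosome X, ended at 1 acceptor and started from donors 11 nt apart in the 5′ UTR. The exon sequences are shown from GENCODE M21 transcripts (mm10). Capitals mark the exon bases kept only when the shorter intron is removed, after the boundary in Pdgfd and before it in Enox2.
Pdgfd, intron of 119553 nt: gagatgAGAGCAATCACCTCACAGacttgt
Pdgfd, intron of 119571 nt: gagatgacttgtaccagagagaggagaaca
Enox2, intron of 118060 nt: aagaagtgtggtgGTATGTTCCAGgattga
Enox2, intron of 118071 nt: tggagaacacaaagaagtgtggtggattga
In Pdgfd the shorter intron held 41 reads, 28 and 13, and the longer 33, 21 and 12. In Enox2 the shorter held 22 reads, 12 and 10, and the longer 7, 4 and 3. The shorter intron had the larger read number in both genes and under both codes, by at most 8 reads under a code.

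Genes with variable first exons gave the other shared acceptors. At the Ugt1a locus, whose first exons code for different glucuronosyltransferases that share all later exons, 3 junctions met at 1 acceptor, with 70 reads (47 and 23) from Ugt1a6b and 48 (40 and 8) and 8 (2 and 6) from Ugt1a7c. In the protocadherin gamma cluster, built the same way, Pcdhga3, Pcdhga4 and Pcdhgb2 joined a common acceptor with 10, 9 and 5 reads. Fry used 2 donors with 49 and 28 reads, and Tenm3 2 donors with 26 and 6. Skap1 and Chchd6 each joined 1 donor to 2 acceptors, with 37 and 23 reads and with 29 and 10 reads. Within these sets the read numbers of 10 or less rest on counts too small to order them.

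The deposited contigs, stretches of continuous read cover on mm9, showed RNA inside the long introns on the strand of the gene. The 373 introns held 33617 contigs on their own strand and 862 on the opposite strand, and 366 of them had more on their own. Contigs covered a median of 13.6% of the intron on its own strand and 0.0428% on the other. An annotated gene lay wholly inside 222 of the introns, and a protein-coding one inside 16. Cover was not even along the intron. Divided into 10 equal parts from the 5′ end, the median cover on the gene's strand was 23.2% in the first part, 14.6% in the fifth and 3.58% in the last. The first part had more cover than the last in 340 of 373 introns (91.2%). Among the 151 introns without an annotated gene inside, the share was 92.7%. It was 91.7% of 181 first introns and 90.6% of 192 later ones.

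**Figure D3:**
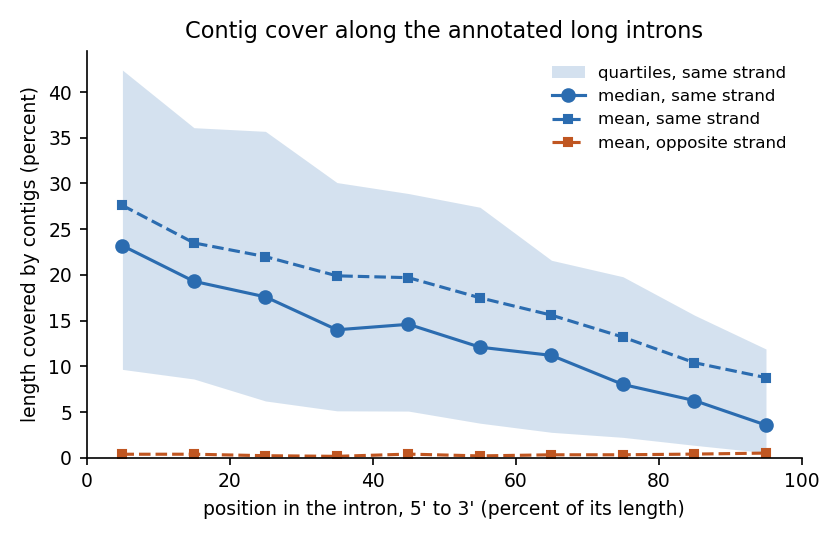
Percent of the length covered by contigs in 10 equal parts of the 373 annotated long introns, from the 5′ to the 3′ end, on the gene's own strand (blue: median as circles, mean as squares, quartiles shaded) and on the opposite strand (orange: mean). The median on the gene's strand fell from 23.2% to 3.58%, and the mean on the opposite strand was at most 0.52% in any part.

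Single genes differed in how far cover fell. In Msra the first part was covered to 22.1% and the last to 0.922%, and in Tbl1x to 59.1% and 4.79%. In Ghr, where 51.0% of the intron was covered, it was 72.8% and 39.9%. Prlr was flatter, at 59.3% and 44.1%, and Rbms1 had its highest cover in the ninth part, at 41.9%. The contig table pools the series, so no spread over replicates can be given for these shares. Whether the cover came from RNA that still held the intron or from unannotated exons was not tested.

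The 1254 long junctions without an annotated counterpart differed from these. A total of 705 carried the code C=1 and 549 the code C=0. The C=1 group had a median length of 173128 nt and a median of 18 reads, with 23256 reads under R1 and 16642 under R2. The C=0 group had 203139 nt and 11 reads, with 6875 under R1 and 19755 under R2. The longest junction, at chr12:17774106-18997313 on the plus strand, was of the C=1 kind and ran 1223208 nt from a donor of Hpcal1, with 12 reads, 5 and 7.

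**Figure D4:**
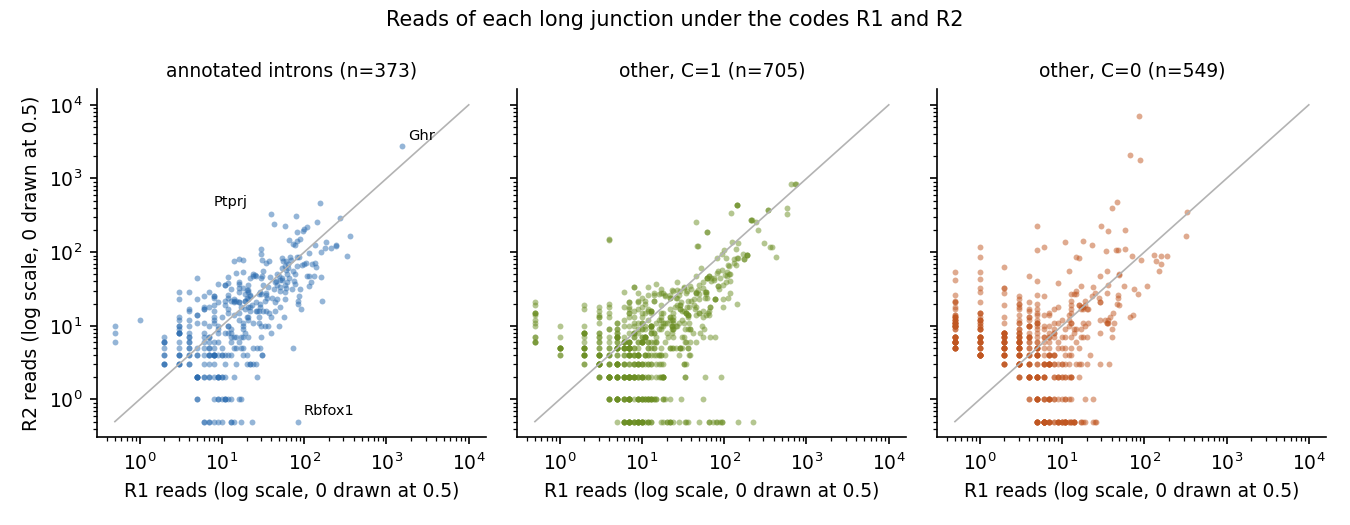
Reads of each long junction under R1 (horizontal) and R2 (vertical), both on log scales with 0 drawn at 0.5, for the 373 annotated introns, the 705 other junctions with C=1 and the 549 with C=0; the grey line marks equal numbers. The 3 C=0 junctions with 1779 to 7112 reads under R2 and under 100 under R1 lie far above the line, and Rbfox1 lies at 83 and 0.

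Of the 705 junctions with C=1, 283 joined an annotated donor of one gene to an annotated acceptor of another, and with 1 further junction coded C=0 these made 284 junctions between 151 pairs of genes. The sequences below show, for the most-read junction of 6 such pairs picked after their values were seen, among them the pair with the most reads on 1 junction (2610005L07Rik to 6820431F20Rik, 981 reads, 586 and 395), the last 15 and first 15 exon bases that each gene has at its own copy of that exon boundary (GENCODE M21, mm10). Capitals mark bases that differ between the copies.
Selenbp2: ccccagtatagccaggtcatccacaggttg
Selenbp1: ccccagtatagccaggtcatccacaggttg
Plac9b: cccccggacggcgagctgccgagtccccca
Plac9a: cccccggacggcgagctgccgagtccccca
Myh1: tttgagatctttgatttcaacagcctggag
Myh13: tttgagatctttgatttcaacagcctggag
H2-D1: accagagcGCgggcggctctcacacactcc
H2-Q5: accagagcAAgggcggctctcacacactcc
Krt17: tcccagctcagcatgaaagcATcTctggaG
Krt19: tcccagctcagcatgaaagcTGcCctggaA
2610005L07Rik: GtGcTGgTGgGcAGgcttcattctgacatt
6820431F20Rik: TtAcAAgCTgCcCTgcttcattctgacatt
At the first 3 pairs the copies were letter for letter the same over these 30 bases, and bases farther from the boundary were not compared. In the last pair the copies differed at 9 of the 15 bases before the boundary and at none after it. Over all 284 junctions the last 15 bases of the donor exon were identical to those of the acceptor gene's own preceding exon in 225 (79.2%), the first 15 bases after the boundary were identical in 212 (74.7%), and at least one side was in 265 (93.3%). Where a site had several annotated exon boundaries, the most alike combination was taken. Between an annotated long intron and the next intron of its transcript, 0 identical ends were found in 343 cases, with a median identity of 26.7%. Those are different exons of 1 gene, so this value is not a baseline for gene copies.

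The reads of the C=1 junctions often equalled those of another junction, short or long, at a shared site. In 312 of the 705 junctions with C=1 (44.3%) another junction at the same donor or acceptor had exactly the same R1 and the same R2, against 2 of the 373 annotated long introns. In the block of Plac9, Tmem254 and Anxa11 copies on chromosome 14, 49 of 50 long junctions were of this kind. There, 573 reads, 143 under R1 and 430 under R2, stood on junctions from Gm9780 to Plac9a, from Plac9b to Plac9a and from Plac9b to an acceptor annotated for both Gm9780 and Plac9b, and also on the short junctions at these sites. The deposited levels of this block were 20.30 and 38.37 TPM for Plac9b and 2.06 and 1.14 TPM for Plac9a. Which of the copies such reads came from cannot be told apart from this table.

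Selenbp2 and Selenbp1, which code for selenium-binding proteins, were joined by 9 long junctions with 2781 reads, 1781 under R1 and 1000 under R2. The most-read, at chr3:94501027-94741129 on the plus strand, held 912 reads (579 and 333), and the short Selenbp1 junction at its acceptor held 1203 (782 and 421). Selenbp1 stood at 107.14 and 88.28 TPM and Selenbp2 at 0.41 and 5.12 TPM. Krt17 and Krt19, keratins of basal and luminal cells, were joined by 717 reads, 342 and 375, where the Krt19 acceptor had a short junction of 4335 reads. H2-D1, a class I histocompatibility gene, was joined to H2-Q5 by 459 reads, 120 and 339, and its own short junction at that donor held 8270. Ces1g, at 0.01 and 0.24 TPM, was joined to Ces1d, at 1009.99 and 621.13 TPM, by 253 reads, 172 and 81. In each of these pairs a short junction at one of the sites held more reads than the long one.

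Long junctions between the skeletal myosin heavy chain genes carried nearly all their reads under one code. The 26 of them held 1327 reads under R1 and 1 under R2. Myh1 was joined to Myh13 by 226 reads, all under R1, and Myh4 to Myh13 by 149, all under R1. Myh4 stood at 391.39 TPM in replicate 1 and 0.18 TPM in replicate 2, and Myh1 at 69.44 and 0.04 TPM. These genes are among the 18 skeletal muscle markers above. Other gene families added 50 junctions around Tmem181 and Dynlt1, 48 among class I histocompatibility genes, 30 around Ccl21, Ccl19 and Ccl27, 22 among cytochrome P450 genes, 17 among complement factor H genes and 16 among guanylate-binding protein genes. The Ccl21 block held the 3 most-read C=1 junctions, with 1585 reads (736 and 849), 1559 (729 and 830) and 1487 (643 and 844). They led from the annotated sites of Gm13304 and Ccl21b into the Gm13306 region, where short junctions at the same acceptors held 1611 and 1570 reads.

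Immunoglobulin and T cell receptor loci had 72 of the unmatched long junctions, 12 of which led from the joining segments of the heavy chain to constant-region genes. In a B cell a variable region, assembled next to a J segment, is spliced to a constant region, and class switching removes the DNA between them, so the distance on the reference genome is not the length of the intron in a switched cell. The 4 donors lay at the spacing of the annotated segments Ighj1 to Ighj4. The exon bases joined are shown for the constant gene with the most reads, with the last 15 bases of the J segment before the boundary and the first 15 bases of Igha after it, from the reference transcripts of GENCODE M21 (mm10), and with capitals as in the first set of sequences.
Ighj1 to Igha: tcaccgtctcctCAGAgtctgcgagaaatc
Ighj2 to Igha: tcacagtctcctCAGAgtctgcgagaaatc
Ighj3 to Igha: tcactgtctctgCAGAgtctgcgagaaatc
Ighj4 to Igha: tcaccgtctcctCAGAgtctgcgagaaatc
All 4 J segments ended in CAG, and Ighj1 and Ighj4 had the same last 15 bases. Igha, the constant gene of IgA, the antibody class secreted into milk, received 726 reads over 168277 to 169544 nt, 428 under R1 and 298 under R2. By segment they were 93 (45 and 48) from Ighj1, 261 (168 and 93) from Ighj2, 205 (99 and 106) from Ighj3 and 167 (116 and 51) from Ighj4. Ighj2 thus led and Ighj1 was lowest in the sum, while Ighj3 was the highest under R2 alone.

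The other constant genes received fewer reads. Ighg2b had 82 from 3 segments, of which Ighj2 gave 62 (40 and 22). Ighg2c, which this strain carries in place of Ighg2a, had 59, with 34 (10 and 24) from Ighj1, and Ighe, the constant gene of IgE, had 36, with 24 (6 and 18) from Ighj2. The deposited gene levels were 31.28 and 40.75 TPM for Igha, 3.93 and 5.93 TPM for Ighg2b, 1.78 and 3.05 TPM for Ighg2c and 3.85 and 5.33 TPM for Ighe. The next junction, out of the first exon of the constant gene, held 96 reads for Igha, 109 for Ighe, 38 for Ighg2b and 8 for Ighg2c. Why these differ from the reads of the long junctions was not tested. By the long junctions and by level Igha was highest of these 4, while by the next junction Ighe was. The order of Ighe and Ighg2c differed between the long junctions and the level. These are the constant genes with long junctions from the J segments; Ighm, for one, stood at 491.24 and 632.45 TPM, and Ighg1 at 28.92 and 77.32 TPM. The labels do not give the number of B or plasma cells, and fewer cells of a type and less RNA per cell cannot be told apart in bulk tissue.

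**Figure D5:**
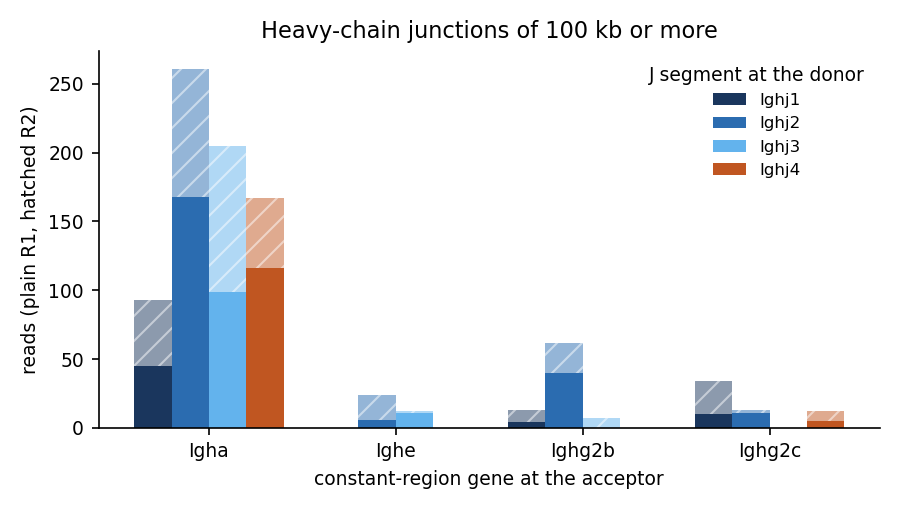
Reads of the 12 heavy-chain junctions of 100 kb or more by constant-region gene at the acceptor and J segment at the donor, with R1 plain and R2 hatched on top. Igha received 93 to 261 reads from each of 4 segments, and no other bar passes 62.

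A further 19 junctions with C=1 joined annotated sites of 1 gene but had no kept match by exact length. Whether the combination is absent from the annotation or the intron length differs between mm9 and mm10 was not tested. Among them, Macrod1 had 35 reads (6 and 29), Bckdhb, a subunit gene of branched-chain amino acid breakdown, had 33 (11 and 22) and 9 (3 and 6) from 1 donor, Mgmt, a DNA repair gene, had 20 (14 and 6), and Mrps28, a mitochondrial ribosomal protein gene, had 19 (2 and 17). Gse1 had 16 (8 and 8). For comparison, the annotated long intron of Macrod1 held 531.

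The junctions with C=0 had mostly no annotated splice site at their ends. In 508 of 549 (92.5%) neither end was an annotated site. In 161 neither end could be named within 10 kb of a gene anchored by other junctions on the same strand. The 3 most-read junctions without an annotated counterpart were of this kind. That at chr4:121870932-122132563 on the minus strand held 7199 reads, 87 under R1 and 7112 under R2, that at chr7:130363558-130503843 on the plus strand held 2159, 68 and 2091, and that at chr6:30479971-30688254 on the minus strand held 1867, 88 and 1779. No locus name was found for any of these 6 ends on the junction's own strand, the only strand searched. The R2 number of each of these junctions exceeded R1 by more than 10 times. The first stood in a group of 5 junctions whose ends lay within 100 nt of each other, with 7581 reads in all, and 51 of the C=0 junctions formed 19 such groups.

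Where an end of a C=0 junction lay inside a gene, the levels of such genes varied widely. For 264 junctions the higher mean TPM of the named genes had a median of 43.9, and in 97 (36.7%) it was at least 100 TPM. The same held for 130 of 614 other junctions with C=1 (21.2%), for 4 of the 309 host genes and for 1329 of 13272 expressed protein-coding genes. A junction with a gene at each end counted by the higher of the pair, while the last 2 counts take each gene once. Fasn, the fatty acid synthase gene, lay at an end of 8 at 10582 and 16923 TPM, and Cfd, the adipsin gene, at an end of 7 at 13596 and 29051 TPM. This share describes where the junctions lay, and no cause was tested. Among genes at lower levels, Gm13306 lay at an end of 6 at 10.36 and 0.94 TPM and Peli2 at an end of 4 at 7.32 and 10.53 TPM, and Gm30211, with no TPM here, lay at an end of 8. The 10 most-read junctions of the C=0 group took 53.2% of its reads. R2 made up 74.2% of the reads of the group and 56.9% without its 3 most-read junctions. This share was 51.2% in the annotated long introns, 41.7% in the other junctions with C=1 and 43.7% over all score-passing junctions. The median share per junction was 53.8% in the C=0 group and 45.0% in the annotated long introns. It was 34.6% in the other junctions with C=1 and 38.7% over all score-passing junctions.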

How the data were processed

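The junction table, on mm9, holds read counts and a score, and the contig table a signal, as deposited by the authors once for the series. No label or header states the aligner or what the codes and the score mean. The gene and transcript tables hold expected counts, TPM and FPKM per library, deposited by the authors on mm10. Long junctions were matched to introns of GENCODE M21 (mm10) by exact length, chromosome and strand, and kept where another junction shared the position difference. No coordinate was moved between builds. Other ends were named on the junction's own strand. Names came from annotated sites, genes spanned by matched junctions with at least 3 neighbours within 500 kb sharing their position difference, or the nearest such gene within 10 kb. Genes on the other strand or without a matched intron could not give a name. Of the transcripts that hold an intron, those of protein-coding genes came first and then the one with the highest mean TPM, which need not be coding itself. Matching was tested on simulated junctions, made from annotated introns moved with their lengths kept and from random lengths. Length differences between builds were not simulated. With 1 group and members chosen by readout, no test between groups was made. The lists and members were chosen with earlier results of these data known. Genes were named if among the 15 most-read or 10 longest introns, the 5 most-read unmatched junctions, junctions sharing sites, those next to a threshold, or the 5 most-read of a list; others were chosen after their values were seen, as were the families and muscle markers. Tools were Python 3.11.15, pandas 2.3.3, numpy 2.4.6, scipy 1.17.1 and matplotlib 3.10.9. Intervals for 0 reads cover counting error only.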

Additional observations from a re-analysis of the deposited data

How the results depend on the processing

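The number of long junctions followed its thresholds. It was 1627 as reported, 1033 with a score under 0.05, 241 under 0.01 and 90322 with no score threshold, and it was 3464 from 50 kb and 621 from 200 kb. A minimum of 10 reads left 1224, and at least 1 read under both R1 and R2 left 1420. The number matched to annotated introns was 373, and 374, 381 or 369 by exact length alone (added after the data were seen), by length within 10 nt or with a second junction of the same gene. Host genes at 1 TPM in both replicates numbered 283, with 266 by FPKM, 299 at 0.5 TPM and 159 at 5 TPM, and 288 to 295 when 1 replicate was left out. The median of 16 reads was 9 under R1 alone and 7 under R2 alone. The share of introns with more contig cover in the first part than in the last was 91.2%, and 91.9% to 92.7% under 3 alternatives added after the data were seen. No paired analysis was possible because there is 1 group. Depth limits the weakest introns, which held 5 reads.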
